A study of Mus musculus with 2 samples.

Results

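The genes described here are 10 markers of kidney tubule injury and repair (Lcn2, Spp1, Clu, Gdf15, Havcr1, Cd44, Prom1, Krt20, Anxa2 and Sox9), chosen by name, out of 34763 gene names on the array. The choice was made with earlier results of these data known. The genes were found as non-control spots carrying these names, which gave 24 spots of 15 probes on each of 2 arrays. The arrays compared total RNA of mIMCD3 cells, a mouse epithelial line derived from the inner medullary collecting duct, exposed for 4 h to 10 ng/mL of the hormone FGF23 with RNA of mIMCD3 cells left unstimulated. Both groups were grown in serum-containing medium. Each Agilent two-colour array held both RNAs, with the FGF23 RNA labelled Cy3 on array 1 and Cy5 on array 2. The labels do not say whether the arrays came from separate cultures, so the spread between them may be technical.

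Injured tubule cells lose specialised functions, re-express genes of development, and release or display proteins that are used clinically to detect the injury. Lcn2 (lipocalin 2, also called NGAL) is secreted by distal tubule and collecting duct cells and binds iron-carrying siderophores. Havcr1 (kidney injury molecule 1) is a receptor for phosphatidylserine that appears mainly on injured proximal tubule cells. FGF23, a fibroblast growth factor made in bone, acts through FGF receptors with the co-receptor klotho, and the study looked for effects on tubule cells beyond calcium and phosphate handling.

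After loess normalization within each array, Lcn2 gave a higher signal with FGF23 on both arrays. Havcr1 and the hyaluronan receptor Cd44 then gave a lower signal with FGF23 on both arrays. With median centring instead, each of these genes was lower on array 1 and higher on array 2. Each was thus brighter in Cy5 whichever RNA carried that dye. Their mean log2 ratios over both arrays were then 0.25 for Lcn2, -0.29 for Havcr1 and -0.28 for Cd44. The loess differences were small, at 1.20-fold for Lcn2, 0.823-fold for Havcr1 and 0.830-fold for Cd44, and none passed limma's test over 19220 genes. The other 7 markers lay between mean log2 ratios of -0.10 and 0.14. Thus 0 of 10 markers passed, against 9 of all 19220 genes (0.0468%, all higher). By size, 1 of the 10 was at least 0.2 higher on the log2 scale on both arrays, against 0.978% of all genes, and 2 were at least 0.2 lower on both, against 0.401% of all genes. Because the markers were chosen with earlier results of these data known, these shares cannot be read as an excess. In bulk RNA, fewer cells making a transcript and less transcript per cell cannot be told apart.

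Some of the probes that carry these values are shown here as 60-base sequences from the array files, because Havcr1 was read by separate probes and because the Cd44 probes gave unlike values. All positions are on build mm9, and the exon or UTR of each probe was not analysed here. The Havcr1 probes lie on chromosome 11, on the plus strand, at chr11:46569677-46569736 and chr11:46592056-46592115. The Cd44 probes shown are the 2 dimmest of 4 and lie on chromosome 2, on the minus strand, at chr2:102677971-102678030 and chr2:102672645-102672704.
Havcr1 A_51_P371745: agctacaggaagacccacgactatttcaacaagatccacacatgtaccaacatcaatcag
Havcr1 A_55_P2148210: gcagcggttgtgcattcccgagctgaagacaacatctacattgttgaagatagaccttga
Cd44 A_55_P2166488: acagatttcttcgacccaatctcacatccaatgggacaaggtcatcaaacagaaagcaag
Cd44 A_55_P2166486: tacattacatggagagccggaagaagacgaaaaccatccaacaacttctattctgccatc

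All 15 probes were well above background in both dyes on both arrays, and none of their spots was saturated. Over the whole array, 48.2% to 55.2% of the 59305 non-control spots per array were well above background, and 0 were saturated. The Cy5 signals were brighter than the Cy3 signals throughout, with array medians of 69.9 and 76.9 against 52.5 and 54.5 scanner units. Brightness is therefore given below after normalization within each array (normexp background correction and loess), in linear units. No normalization between arrays was made, so whether FGF23 and unstimulated values overlap across arrays is a description only. The share of all genes without such overlap was not computed. FGF23 and unstimulated cells are compared within a probe, and the order of probes by brightness serves only to choose or describe them, since signals of different probes do not give relative transcript levels. Precision is limited by the number of arrays. The keratins Krt18 and Krt8 were detected, as were 13 of 16 collecting duct markers, while Aqp3, Avpr2 and Hsd11b2 were not well above background in both arrays of either condition. Detected markers of other cell types numbered 6 of 11 for proximal tubule, 5 of 11 for macrophages, 3 of 7 for endothelium and 1 of 8 for fibroblasts. Among those not detected were the proximal tubule transporter Slc34a1 and the leukocyte gene Ptprc. No cell type marker passed limma's test. Median log2 ratios were 0.025 for collecting duct, 0.027 for proximal tubule, 0.12 for macrophage and 0.033 for endothelial markers. The brightest detected were Krt18 (-0.022) and Krt8 (-0.053) for collecting duct, the endocytic receptors Lrp2 (0.013) and Cubn (-0.0094) for proximal tubule, Itgam (-0.058) and Csf1r (0.16) for macrophages, and the receptors Kdr (0.033) and Flt1 (0.058) for endothelium. On the probes used, only Csf1r and Kdr of these had ratios of 1 sign on both arrays. Among dimmer probes of these genes, 1 for Csf1r had -0.062 and 0.096 and another had 0.13 and 0.11. The dimmer Itgam probe had -0.20 and 0.097, and the dimmer Krt8 probe had -0.092 and -0.086. Flt1 had 0.27 and -0.16, and its other probe had -0.22 and -0.022. The collagen gene Col1a1 (-0.082), on a dim probe, was the fibroblast marker detected. Dimmer still were the probes of Aqp1, Ggt1, Miox and Slc22a6 for proximal tubule, C1qb for macrophages and Pecam1 for endothelium, all counted as detected. Of the collecting duct markers, the probes of Scnn1a, Aqp2 and Gata3 were also dim. Their mean log2 intensities were 7.19, 7.52 and 7.74, against 7.11 for Col1a1. The part of other cell types in the marker ratios was not tested.

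**Figure D1:**
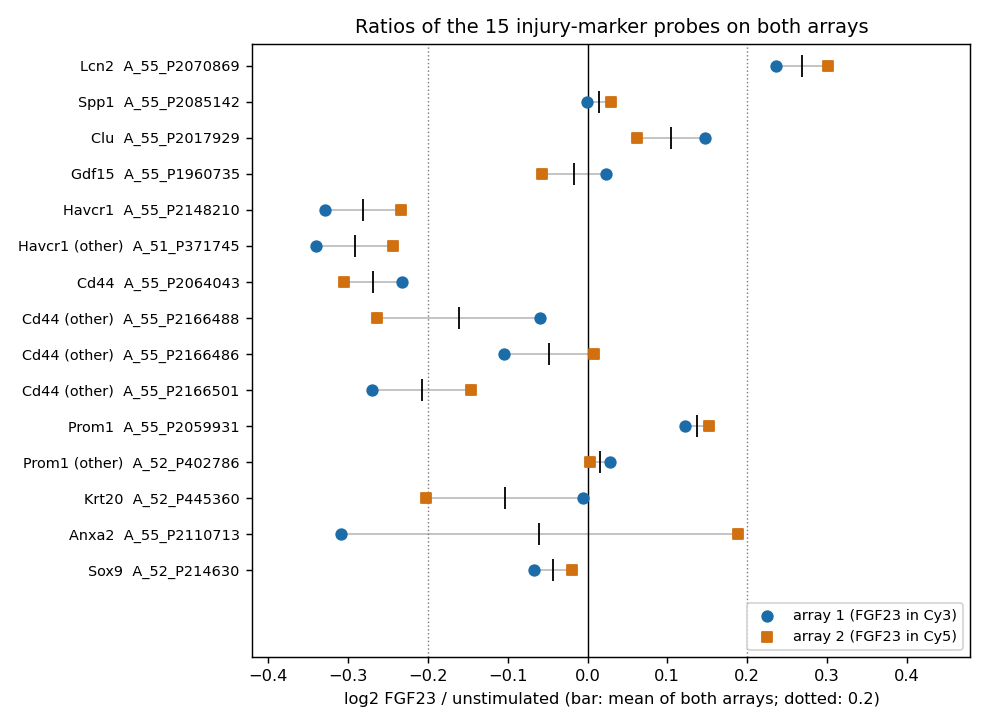
Log2 ratio of FGF23 over unstimulated (horizontal axis) for each of the 15 probes, with a point for each array, a bar for the mean and dotted lines at 0.2 in either direction. Lcn2 lies above 0.2 on both arrays, both Havcr1 probes lie below -0.2 on both, and Anxa2 lies on opposite sides of 0.

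Among the secreted markers, Lcn2 had normalized intensities of 6993 and 7525 in FGF23 cells on arrays 1 and 2, against 5939 and 6105 in unstimulated cells. Both values with FGF23 were above both values without it. The log2 ratios were 0.24 and 0.30, with a mean of 0.27 ± 0.047 (SD, n = 2 arrays). In limma's test over all genes the unadjusted p was 0.0084 and the adjusted p was 0.92, with a 95% interval of 1.06- to 1.37-fold from the same fit. The intervals given here and below are for single genes and are not adjusted for the number of genes tested. Nor do they allow for the choice of markers with earlier results known. By its mean ratio Lcn2 was 147th from the top of 19220 genes. It was read by a single probe, on chromosome 2 at 32240199 to 32240258.

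Spp1 encodes osteopontin, a secreted phosphoprotein that binds integrins and CD44 and hinders crystal growth in urine. Its normalized intensities were 3422 and 3536 in FGF23 cells and 3425 and 3464 in unstimulated cells, and the groups overlapped. The mean log2 ratio was 0.014 ± 0.022 (SD, n = 2 arrays), with a 95% interval of 0.888- to 1.15-fold. Clu, the secreted chaperone clusterin, had 15830 and 16011 in FGF23 cells, against 14290 and 15333 in unstimulated cells. The groups did not overlap, and the log2 ratios were 0.15 and 0.062, with a 95% interval of 0.944- to 1.22-fold. Gdf15, a stress-induced cytokine of the TGF-beta superfamily, had 20644 and 20560 in FGF23 cells and 20320 and 21394 in unstimulated cells. The groups overlapped, and the log2 ratios had opposite signs, 0.023 on array 1 and -0.057 on array 2. The intervals of these secreted markers other than Lcn2 all include no difference, and their adjusted p in limma was 1.0.

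Among the cell surface markers, the brighter Havcr1 probe had normalized intensities of 398 and 427 in FGF23 cells, against 499.7 and 502 in unstimulated cells. Both values with FGF23 were below both values without it. Its log2 ratios were -0.33 and -0.23, with a mean of -0.28 ± 0.068 (SD, n = 2 arrays). In limma the unadjusted p was 0.0065 and the adjusted p was 0.80, with a 95% interval of 0.722- to 0.937-fold. The other Havcr1 probe, which lies upstream on the same strand, had 199 and 204 in FGF23 cells and 253 and 242 in unstimulated cells. Its log2 ratios of -0.34 and -0.24 differed from those of the brighter probe by less than the spread between arrays. With Agilent's processed log ratio the probes lay further apart, at -0.43 and -0.41 for this probe and -0.34 and -0.32 for the brighter one, all below 0. By its mean ratio Havcr1 was 50th from the bottom of all genes.

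Cd44, a receptor for hyaluronan and osteopontin, was read by 4 probes annotated to the same transcript. Whether they read the same splice forms of Cd44 was not analysed, so they may not be repeat readings of 1 RNA. The brightest probe, starting at transcript base 5494, had 1328 and 1313 in FGF23 cells, against 1560 and 1623 in unstimulated cells. Both values with FGF23 were below both values without it, with log2 ratios of -0.23 and -0.31 and a mean of -0.27 ± 0.052 (SD, n = 2 arrays). In limma the unadjusted p was 0.0084 and the adjusted p was 0.92, with a 95% interval of 0.729- to 0.945-fold. The next brightest probe, starting at base 2614, had log2 ratios of -0.27 and -0.15. The dimmest probes are the Cd44 sequences shown above. The one starting at base 1777 had normalized intensities of 122 and 113 in FGF23 cells and 127 and 136 in unstimulated cells, with log2 ratios of -0.06 and -0.26. The one starting at base 1965 had 93.5 and 104 in FGF23 cells and 101 and 103 in unstimulated cells, with log2 ratios of -0.10 and 0.0078. Their raw Cy3 signals of 56.6 to 90.1 units stood over local backgrounds of about 40 units. With Agilent's processed log ratio in place of normexp and loess, the mean log2 ratios were -0.41 for the probe starting at base 1777 and -0.20 for that at base 1965, against -0.16 and -0.048 in the main setting, and -0.29 for the brightest probe. By array, the base 1777 probe then had -0.16 and -0.67, against -0.23 and -0.34 for the brightest probe. In that setting its ratio was thus nearer 0 on array 1 and further from 0 on array 2.

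Prom1 encodes prominin 1, a membrane protein of cell protrusions that marks scattered tubule cells with progenitor features. Its brighter probe had 7869 and 8056 in FGF23 cells, against 7229 and 7249 in unstimulated cells. The groups did not overlap, and the log2 ratios were 0.12 and 0.15, with a 95% interval of 0.967- to 1.25-fold that includes no difference. The dimmer Prom1 probe had log2 ratios of 0.028 and 0.0026. Cell surface markers thus had values on both sides of 0, with Havcr1 and Cd44 below and Prom1 above.

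**Figure D2:**
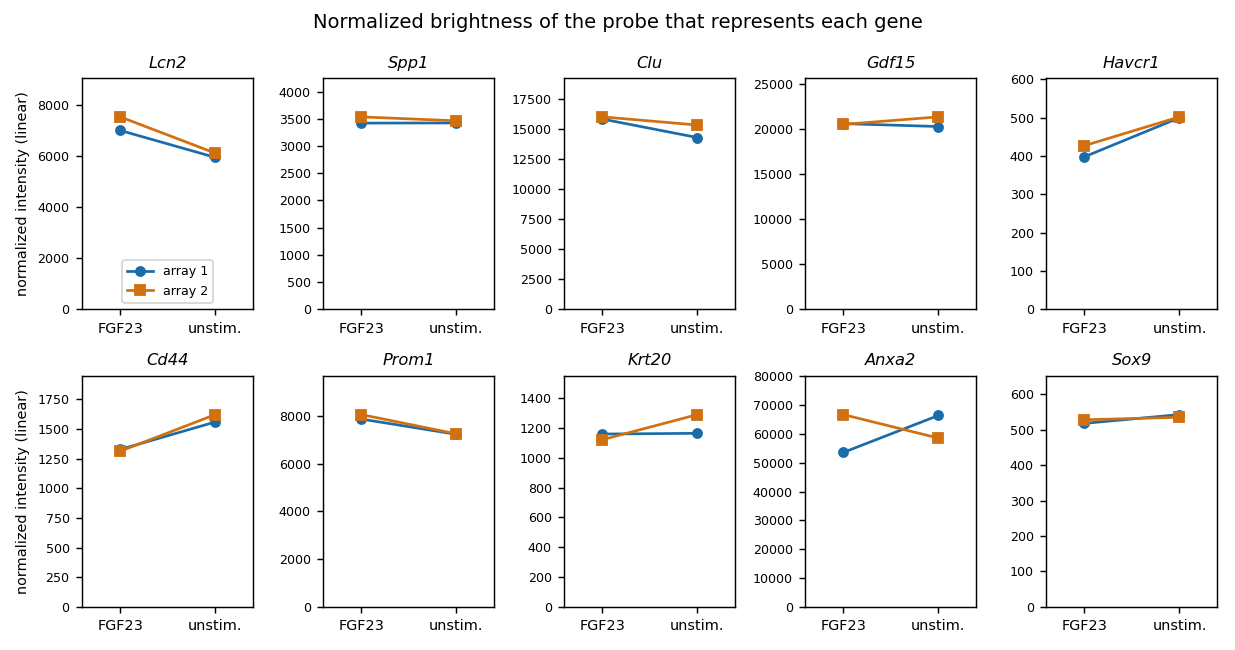
Normalized intensity (linear units, axes from 0) of the probe that represents each gene, in FGF23 cells at left and unstimulated cells at right, with a line for each array. The lines slope down from FGF23 to unstimulated for Lcn2 on both arrays, slope up for Havcr1 and Cd44 on both arrays, and cross for Anxa2.

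Of the intracellular markers, Krt20 is a keratin that appears in injured tubules. It had 1160 and 1122 in FGF23 cells, against 1164 and 1290 in unstimulated cells, with no overlap but nearly equal values on array 1. Its log2 ratios were -0.0059 and -0.20, so that array 2 carried nearly all of its mean of -0.10 ± 0.14 (SD, n = 2 arrays). Anxa2, a calcium-dependent membrane-binding protein that pairs with S100a10, had 53623 and 66764 in FGF23 cells and 66458 and 58596 in unstimulated cells. The groups overlapped, and the log2 ratios were -0.31 on array 1 and 0.19 on array 2, the widest spread among the 10 genes (SD 0.35). Read as Cy5 over Cy3 instead, the Anxa2 log2 ratio was 0.31 on array 1 and 0.19 on array 2, so the probe was brighter in Cy5 whichever RNA carried that dye. For the other 14 probes the mean log2 ratio of Cy5 over Cy3 lay between -0.10 and 0.062.

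Sox9 is a transcription factor of the developing collecting duct that is re-expressed in repairing tubules. Its probe was printed 10 times on each array, and 8 spots remained on array 2 after outliers were left out. Its normalized intensities were 518 and 528 in FGF23 cells and 543 and 535 in unstimulated cells, without overlap. The log2 ratio was -0.068 ± 0.063 over the 10 spots of array 1 and -0.019 ± 0.040 over the 8 spots of array 2 (SD over spots, which are not biological replicates). Spots ranged from -0.18 to -0.00096 on array 1 and from -0.072 to 0.046 on array 2. The 95% interval from limma over the arrays was 0.853- to 1.104-fold. Over the 246 detected probes printed at least 10 times, the median SD between spots was 0.045 on array 1 and 0.043 on array 2.

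With loess normalization, Lcn2 and Havcr1 lay on opposite sides of 0 on each array. With median centring both were below 0 on array 1 (-0.51 for Lcn2 and -0.89 for Havcr1) and above 0 on array 2 (1.01 and 0.30). Read as Cy5 over Cy3, these median-centred values were above 0 on both arrays for both genes. In the loess values, the log2 ratio of Lcn2 minus that of Havcr1 was 0.57 on array 1 and 0.54 on array 2 (mean 0.55 ± 0.021, SD, n = 2 arrays). With loess and the other Havcr1 probe it was 0.58 and 0.55. No test was made of this difference between genes. Across the 10 genes, 3 were above 0 on both arrays (Lcn2, Clu and Prom1), where 23.9% of all genes were, and 4 were below 0 on both (Havcr1, Cd44, Krt20 and Sox9), where 22.3% of all genes were. The 10 genes had a median log2 ratio of -0.030, against -0.00068 for all genes. On single arrays, 3 markers were at least 0.2 lower on each, the additional one being Anxa2 on array 1 and Krt20 on array 2.

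**Figure D3:**
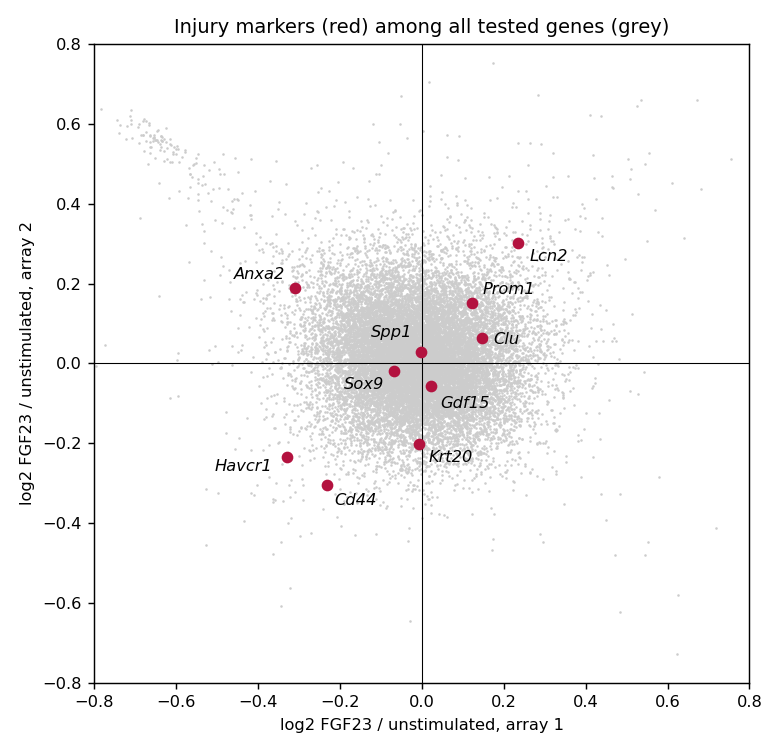
Log2 ratio of FGF23 over unstimulated on array 1 (horizontal) and array 2 (vertical) for the tested genes in grey and the 10 markers in red, with both axes cut at 0.8 in either direction. Lcn2 lies at the upper right, Havcr1 and Cd44 at the lower left, and Anxa2 at the upper left.

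The genes with ratios closest to those of Lcn2 on both arrays were Txndc16 and Tmprss2, at distances of 0.0087 and 0.017 on the log2 scale, followed by an unnamed transcript at 0.018. In all, 36 genes lay within 0.05 of Lcn2. Closest to Havcr1 were Pa2g4, at 0.0035, a probe to an unnamed intergenic transcript and 1700086O06Rik, and 9 genes lay within 0.05. With 2 arrays such a likeness describes only a pair of values.

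Other genes of tubule injury and repair were read in 5 lists, and none of their members passed limma's test. Of 21 urinary or secreted injury markers 14 were detected, 2 of them above 0 and 4 below 0 on both arrays. The list's median log2 ratio was -0.029 over the means of both arrays, 0.035 on array 1 and -0.048 on array 2. The matricellular protein gene Ccn1 had log2 ratios of -0.19 and -0.35, and the chemokine gene Ccl2 had -0.38 and -0.03. Il18, Fabp1, Tff3, Chi3l1 and the 3 fibrinogen genes of this list were not detected. All 24 genes of epithelial dedifferentiation and repair were detected, 6 above 0 and 9 below 0 on both arrays. The list's median was -0.037, with -0.053 on array 1 and -0.014 on array 2. In that list the intermediate filament gene Vim had -0.20 and -0.41, and Dcdc2a, a doublecortin-domain gene, had 0.22 and 0.29.

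Ligands, receptors and partners of the markers were detected for 16 of 26 genes, with 2 above 0 and 6 below 0 on both arrays. The list's median was -0.076, with -0.033 on array 1 and -0.12 on array 2. The receptor tyrosine kinase gene Axl had log2 ratios of -0.36 and -0.16. Has2, which makes the CD44 ligand hyaluronan, had -0.21 and -0.23 on a dim probe. The GDF15 receptor gene Gfral was not detected. Of 27 close relatives of the markers 18 were detected, with 4 above 0 and 5 below 0 on both arrays. The list's median was -0.038, with -0.045 on array 1 and 0.014 on array 2. The activin subunit gene Inhba, a TGF-beta family member like Gdf15, had -0.40 and -0.30, with an adjusted p of 0.38 in limma, and Bmp4 had 0.034 and 0.33.

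All 19 upstream regulators were detected, 7 above 0 and 5 below 0 on both arrays. Their median log2 ratio was 0.065 over the means of both arrays, -0.024 on array 1 and 0.069 on array 2. The AP-1 subunit gene Fosl1 had -0.34 and -0.34, with an adjusted p of 0.44 in limma, and the immediate-early gene Egr1 had 0.11 and 0.41. At an unadjusted p under 0.05 in limma, the 10 markers held 1 higher and 2 lower gene, against 2.6% and 1.31% of all genes. This comparison too is limited by the choice of markers with earlier results known.

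**Figure D4:**
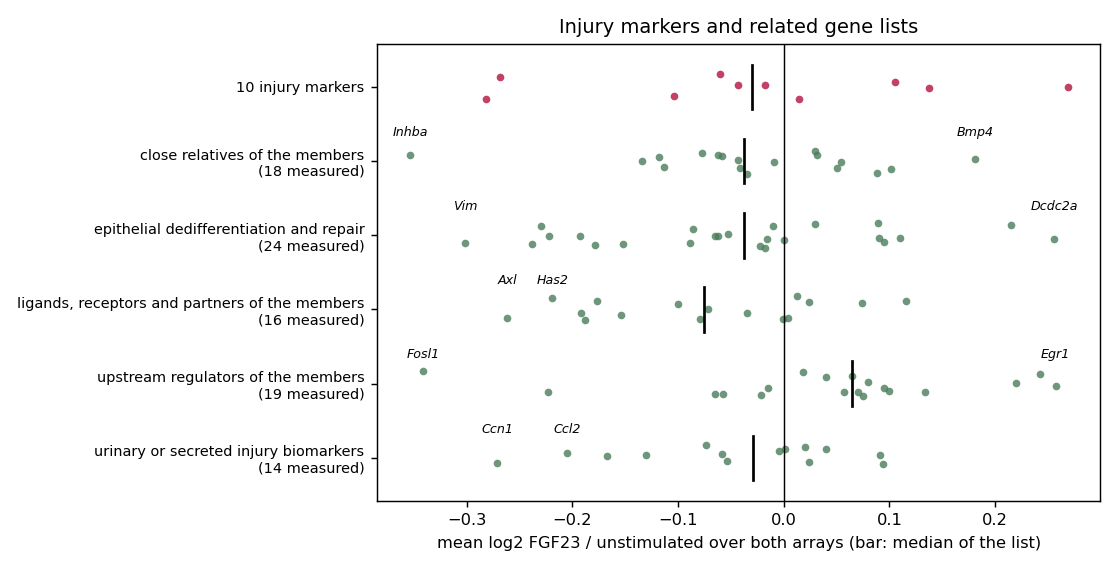
Mean log2 ratio of FGF23 over unstimulated (horizontal axis) of each detected gene in the 10 injury markers (red) and the 5 related lists (green), with a bar at each list's median and the named genes labelled. Each list holds genes on both sides of 0, and the list medians lie between -0.076 and 0.065.

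Under the other ways of processing, each marker's mean log2 ratio kept its sign in all 7 alternatives. Not all of these could change it. The filters could not move these ratios, since all 15 probes were well above background throughout, and the intensity trend alters only the test. The mean over probes could move only Havcr1, Cd44 and Prom1. Lcn2 ranged from 0.25 to 0.27, Havcr1 from -0.33 to -0.28 and Cd44 from -0.29 to -0.17. The Cd44 value nearest 0 came from the mean over its 4 probes, which may not read the same splice forms. None passed limma's test in any alternative. The adjusted p ran from 0.30 to 1.0 for Lcn2 and from 0.28 to 1.0 for both Havcr1 and Cd44. With median centring in place of loess, each marker was below 0 on array 1 and above 0 on array 2. No marker was then at least 0.2 from 0 in 1 direction on both arrays. Array 1 carried the FGF23 RNA in Cy3 and array 2 in Cy5, so each marker was then brighter in Cy5 on both arrays. The cause of that dye difference was not tested.

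**Figure D5:**
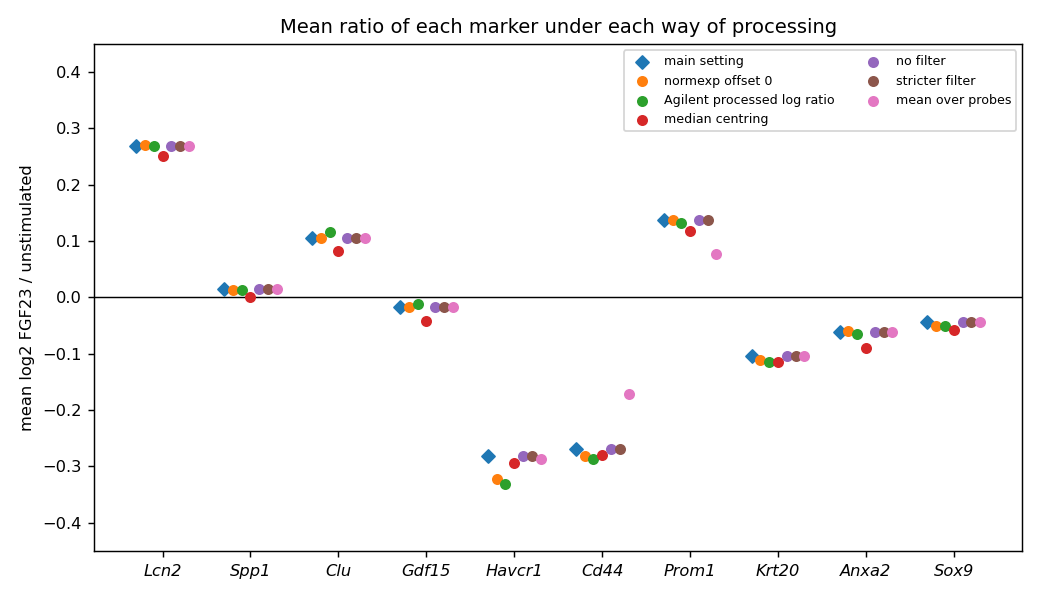
Mean log2 ratio of FGF23 over unstimulated over both arrays (vertical axis) for each marker, with a point for the main setting and for each alternative except the intensity trend and the single arrays. The filter alternatives could not move these ratios. Points of a marker stay on 1 side of 0, and those of Cd44 spread most, from -0.29 to -0.17.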

How the data were processed

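Per the file headers, the deposited scanner output was made with Agilent Feature Extraction 11.5.1.1. It gave, per spot and dye, mean and local background intensity in linear units, flags for saturation, for outliers and for signals well above background, a dye-normalized log10 ratio of Cy5 over Cy3, and that ratio's p-value, the last of which was not used. Mean signals were corrected with normexp (offset 50) and normalized by loess within each array, in limma 3.58.1 under R 4.3.3, where controls had weight 0. Ratios were turned to FGF23 over unstimulated by the labelled dye, outliers were dropped and a probe's spots averaged. Kept probes were well above background in 1 condition or the other on both arrays (26941 of 55681). The brightest kept probe stood for a gene (19220 genes). RefSeq transcripts (GRCm38.p6) gave current symbols to 28026 probes, of which 1651 were renamed.

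Ratios of both arrays were tested against 0 with lmFit and eBayes of limma, adjusted over all genes by Benjamini-Hochberg (threshold 0.05). The fit had 1 residual degree of freedom, so its p-values and intervals rest mostly on a spread shared by all genes (11.9 prior degrees of freedom). No dye term was fitted, as it would leave none. Markers and lists were chosen with earlier results of these data known. Of each related list, genes past the test were named or, with none, the 2 with the largest mean ratio of 1 sign on both arrays; of each cell type list, the 2 brightest qualified, and further undetected genes were named for their absence. Alternatives were offset 0, Agilent's log ratio, median centring, no filter, a filter in all channels, the mean over probes, an intensity trend with a robust prior, and each array alone. The test was checked on simulated data.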

Additional observations from a re-analysis of the deposited data

How the results depend on the processing

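All 90 values of single markers under an alternative were classed as unchanged. On a single array that class asked only for a move smaller than the SD of the 2 arrays, which any pair of values meets. Signs did turn there. Anxa2 was 0.19 on array 2 alone, and Gdf15 was 0.023 and Spp1 -0.0012 on array 1 alone. Their means over both arrays were -0.061, -0.017 and 0.014. In the other alternatives each marker's mean kept its sign and side of the threshold. For the differences listed next, the cause was not tested. Genes past limma's test, 9 higher and 0 lower (251 lower at an unadjusted p under 0.05), numbered 5 higher with a normexp offset of 0, 0 with Agilent's processed log ratio, 0 with median centring, 16 higher and 1 lower with the mean over probes, and, where the prior was robust and followed intensity, 59 higher and 20 lower. The last alternative called 1 gene of the related lists, Inhba among the close relatives (log2 ratio -0.35, adjusted p = 0.024 in limma). Markers at least 0.2 higher on both arrays numbered 0 with median centring, and those at least 0.2 lower numbered 0 with median centring and 1 with the mean over probes. The median of the 10 markers was -0.050 with median centring and ran from -0.0035 to 0.0054 on single arrays. The difference of Lcn2 minus Havcr1 was 0.59 with an offset of 0 and 0.60 with Agilent's log ratio. Signal over background limited the reading, with 48.2% to 55.2% of spots well above it per dye, and 7 of 21 urinary or secreted markers were not detected.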
